A study of Mus musculus with 30 samples.

Results

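The mouse genes described here serve cell division: 30 that act in mitosis and 13 that act at entry into S phase or during DNA replication. They form a list drawn up with earlier results of these data known, and a gene was kept if the annotation of the array platform pairs at least 1 probe with its symbol. This left 37 of 43 genes, 26 mitotic and 11 S-phase, among 11463 genes tested. The mitotic genes Ccnb1, Aurkb, Cenpf and Ttk and the S-phase genes Ccne2 and Chek1 had no probe under their symbol and were not analysed here. RNA came from inguinal mammary glands of 19-week-old mice on a 129sv background, 1 gland per array. The WT group (7 glands) carried neither alteration, the IFNAR1-/- group (8 glands) lacked IFNAR1, the Her2/Neu+ group (6 glands) carried the oncogene Her2/Neu, and the Her2/Neu+/IFNAR1-/- group (9 glands) combined both. IFNAR1 is needed for cells to sense type I interferons. Her2/Neu is a growth factor receptor kinase of the ERBB family. The promoter of the transgene and the cells in which it is active are not given in the sources used here. The question behind the series is how endogenous type I interferon bears on tumour formation driven by Her2/Neu.

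A dividing cell copies its DNA in S phase and separates the copies in mitosis. Cyclin D1 and cyclin E activate kinases that release E2F factors, which turn on genes for nucleotide supply, origin licensing and the replication fork. Later the MuvB complex, with B-MYB and FOXM1, acts through a promoter element called the cell cycle gene homology region (CHR). Its targets include genes for cyclin B, the spindle, the kinetochore and the anaphase-promoting complex. RNA of the mitotic set is abundant only in cells near division, so in a gland of mostly resting cells it comes from few cells. In whole-gland RNA, fewer dividing cells and less RNA per dividing cell cannot be told apart.

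The promoters of members are shown because the mitotic and the S-phase class differ in the elements they hold. RefSeq (build GRCm38.p6) gave a promoter for 31 of the 37 members, 22 mitotic and 9 S-phase, each searched on both strands from 250 bases before to 50 bases after the transcription start. Ccna2, Ccnd1, Foxm1, Gins2, Kif20a and Tpx2 had no entry in the table used. A CHR, taken as TTTGAA or TTTAAA, was found in 17 of 22 mitotic promoters (77.3%), in 3 of 9 S-phase promoters (33.3%) and in 30.6% of all 27025 genes with a promoter. The stricter letters TTTGAA were found in 15 of 22 mitotic promoters (68.2%), in 0 of 9 S-phase promoters and in 20.2% of all genes. The CCAAT box, the site of NF-Y, was found in 15 of 22 mitotic promoters (68.2%), in 3 of 9 S-phase promoters (33.3%) and in 41.1% of all genes. An E2F site, taken as TTTCCCGC, TTTGGCGC, TTTCGCGC or TTTGCCGC, was found in 1 of 22 mitotic promoters (4.55%), in 2 of 9 S-phase promoters (22.2%) and in 2.60% of all genes. No match overlapped one of another kind in the members' promoters, but CCAAT matches on opposite strands can share bases, as upstream of the stretch printed for Ube2c. A match describes letters only, and no binding was measured.

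The 150 bases before the start of 5 mitotic and 3 S-phase members follow, 5′ to 3′ on the gene's strand, chosen because the results turn on these genes or because they show an element. Capitals mark a CHR, a CCAAT box or an E2F site in either orientation, and a match on the other strand appears as its reverse complement.
Ccnb2, chr9:70421555-70421704, minus strand: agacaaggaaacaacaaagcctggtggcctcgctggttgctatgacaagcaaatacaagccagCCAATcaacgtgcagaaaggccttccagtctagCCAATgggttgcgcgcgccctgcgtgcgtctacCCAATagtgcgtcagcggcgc
Cdk1, chr10:69352913-69353062, minus strand: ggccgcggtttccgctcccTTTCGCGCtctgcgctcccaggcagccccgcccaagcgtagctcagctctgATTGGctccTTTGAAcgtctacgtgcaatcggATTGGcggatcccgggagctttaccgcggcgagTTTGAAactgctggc
Ube2c, chr2:164769779-164769928, plus strand: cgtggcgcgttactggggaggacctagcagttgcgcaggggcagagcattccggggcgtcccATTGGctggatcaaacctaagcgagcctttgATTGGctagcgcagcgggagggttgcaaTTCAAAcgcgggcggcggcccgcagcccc
Plk1, chr7:122159285-122159434, plus strand: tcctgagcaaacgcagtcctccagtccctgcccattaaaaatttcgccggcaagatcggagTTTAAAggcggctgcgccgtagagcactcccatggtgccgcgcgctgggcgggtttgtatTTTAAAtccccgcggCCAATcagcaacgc
Top2a, chr11:99024190-99024339, minus strand: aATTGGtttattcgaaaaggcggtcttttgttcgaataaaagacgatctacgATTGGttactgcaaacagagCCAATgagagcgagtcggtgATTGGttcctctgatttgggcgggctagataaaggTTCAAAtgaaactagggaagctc
Rrm1, chr7:102441545-102441694, plus strand: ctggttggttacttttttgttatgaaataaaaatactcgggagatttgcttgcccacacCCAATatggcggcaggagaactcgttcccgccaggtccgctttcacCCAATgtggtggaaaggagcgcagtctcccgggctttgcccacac
Pcna, chr2:132253181-132253330, minus strand: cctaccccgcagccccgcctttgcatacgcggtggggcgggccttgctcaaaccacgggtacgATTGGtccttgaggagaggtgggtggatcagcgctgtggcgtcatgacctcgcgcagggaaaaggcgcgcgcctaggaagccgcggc
Cdc6, chr11:98908001-98908150, plus strand: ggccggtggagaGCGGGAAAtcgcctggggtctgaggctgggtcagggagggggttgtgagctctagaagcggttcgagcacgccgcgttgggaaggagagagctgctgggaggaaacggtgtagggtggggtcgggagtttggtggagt

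Cdk1 shows CHR, CCAAT and E2F letters together, and Ube2c, Plk1 and Top2a show CHR and CCAAT letters. The stretch of Ccnb2 holds 3 CCAAT boxes. Rrm1 and Pcna hold CCAAT boxes and no CHR, and Cdc6 holds an E2F site alone.

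Each value is a log2 ratio of gland RNA over the same universal mouse reference RNA on all 30 arrays, so a value of -3 means a level well below that in the reference. It says nothing about the level of 1 gene against another. An array is called here by its group and its sample number. Adipocyte markers stood above the reference in 11 of 11 measured genes and luminal epithelial markers in 13 of 14, with Krt8 at a mean of -0.73 as the exception. Ifnar1 averaged 0.42 ± 0.92 (SD) across the 7 WT glands and 0.20 ± 0.89 across the 8 that lack the receptor chain, and it averaged 0.77 ± 1.45 in 6 Her2/Neu+ and 1.04 ± 1.23 in 8 measured Her2/Neu+/IFNAR1-/- glands, the highest of the 4 means. The labels do not say whether its probes lie in the deleted part, so this checks nothing. Erbb2, the mouse gene for the Her2/Neu receptor, averaged 0.19 ± 0.39, 0.52 ± 0.63, 0.51 ± 0.40 and 0.38 ± 0.45 in WT, IFNAR1-/-, Her2/Neu+ and double glands, with an oncogene average of 0.09 ± 0.18 (adjusted p = 0.818). The arrays thus give no check of the oncogene label through Erbb2. On every array some values share all their digits with other values of that array. Such repeated values numbered 2639 to 10385 per array, 75.0% of them lay within 0.3 of 0, and how they arose is not given in the sources used here. Spot intensities were not used here, so precision is limited by how many arrays each group has. The labels do not say that the samples of a group came from separate animals, so a p-value here reflects only sample-to-sample spread, which may be technical.

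All 37 members had a mean log2 ratio below 0, against 5231 of 11463 genes (45.6%). The mean lay under -2 for 16 of 26 mitotic members, 4 of 11 S-phase members and 272 genes in all (2.37%). The member means ran from -4.35 for Cenpe to -0.22 for Kif2c. Repeated values made up 42.6% of the values of mitotic members, 33.6% of those of S-phase members and 33.1% of those of all genes. Ccnb2, Aurka, Plk1, Prc1, Pcna and Cdt1 had none. Tyms had only repeated values (23 of 23), Cdc6 had 51 of 52 and Kif2c 53 of 56. Among mitotic members the share repeated was 37.2% in WT, 32.2% in IFNAR1-/-, 41.9% in Her2/Neu+ and 56.3% in Her2/Neu+/IFNAR1-/- glands. Because the share differs between groups, each result is given with all values and, where it bears on the result, with repeated values set to missing, an alternative chosen after seeing the data. That alternative is not independent of the levels. Repeated values lie mostly near 0, above the usual level of the mitotic members, so leaving them out can itself lower the group with the most.

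With all values used, the median of the mitotic members was higher in glands with the oncogene in both pairwise contrasts, and no single member passed the test in either. In Her2/Neu+ against WT glands the median difference was 0.67 over the 26 mitotic members, 0.30 over the 11 S-phase members and -0.02 over all genes, and 21 mitotic and 7 S-phase members lay above 0. None of the 37 passed (limma, p adjusted after Benjamini-Hochberg across the 11463 genes, under 0.05), where 0.131% of all genes passed. At an unadjusted p under 0.05, 9 mitotic and 2 S-phase members were higher, beside 5.37% of all genes. In Her2/Neu+/IFNAR1-/- against IFNAR1-/- glands the medians were 0.84 and 0.43 beside 0.15 over all genes. The mitotic median there did not hold up without repeated values: it was 0.061 with them missing (7 of 14 above 0) and -0.31 over probes repeated on at most 3 arrays (3 of 11 above 0). There 0 members passed beside 1.31% of all genes, and 13 mitotic and 2 S-phase members were higher at an unadjusted p under 0.05, beside 13.5%. Genes with a mean under -2, like most mitotic members, had a median of 0.53 in the first of these contrasts and 0.20 in the second. Of these genes 19.5% in the first and 33.8% in the second were higher at an unadjusted p under 0.05. The members' medians and counts are to be read beside these values.

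Averaged over both receptor states, 4 mitotic and 0 S-phase members rose with the oncogene, beside 2.57% of all genes that passed in either direction. They were Nusap1, Tpx2, Birc5 and Cdk1, with fold differences of 2.77, 3.12, 2.04 and 2.42. The median difference was 0.81 over mitotic and 0.42 over S-phase members beside 0.07 over all genes, and 25 of 26 mitotic and 10 of 11 S-phase members lay above 0. At an unadjusted p under 0.05, 13 mitotic and 6 S-phase members were higher, beside 11.3% of all genes. Among the 272 genes with a mean under -2, 42.6% were higher at that level, the median was 0.46 and 11.8% passed. This average uses all 30 arrays and shares them with the contrasts above. With repeated values missing, 14 mitotic and 7 S-phase members could be tested and none passed, beside 6.10% of all genes in either direction. Higher at an unadjusted p under 0.05 were 4 mitotic and 3 S-phase members, beside 14.2% of all genes. Among genes with a mean under -2 that share was 20.7%. The mitotic median was then 0.46, with 13 of 14 above 0, and the S-phase median 0.41, with 6 of 7 above 0.

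Loss of the receptor gave no call among the members in any setting that used all 30 arrays with equal weights. In IFNAR1-/- against WT glands the medians were -0.33 for mitotic and -0.62 for S-phase members beside -0.08 over all genes. The counts at an unadjusted p under 0.05 were 0 mitotic and 2 S-phase members, all lower, beside 3.99% of all genes lower. After adjustment 0.0262% of all genes passed in limma. In Her2/Neu+/IFNAR1-/- against Her2/Neu+ glands the medians were -0.11 and -0.19 beside 0.11, and 0.0785% of all genes passed the threshold. At an unadjusted p under 0.05, 3 mitotic and 1 S-phase members were lower. Beside them, 4.18% of all genes and 11.4% of genes with a mean under -2 were lower at that level. Averaged over both oncogene states the medians were -0.14 and -0.32 beside 0.02, and 0.0698% of all genes passed. The interaction is the difference made by receptor loss in oncogene-bearing glands less that in glands free of it. Its medians were 0.32 and 0.16 beside 0.18, with 0 members and 0.0174% of all genes past the threshold. At an unadjusted p under 0.05, 2 mitotic and 2 S-phase members were higher, beside 6.86% of all genes. At that level 2 mitotic and 0 S-phase members were lower, beside 2.77%. Among genes with a mean under -2, 2.94% were higher and 6.99% lower. In no pairwise contrast did the 2 groups of any member separate fully.

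**Figure D1:**
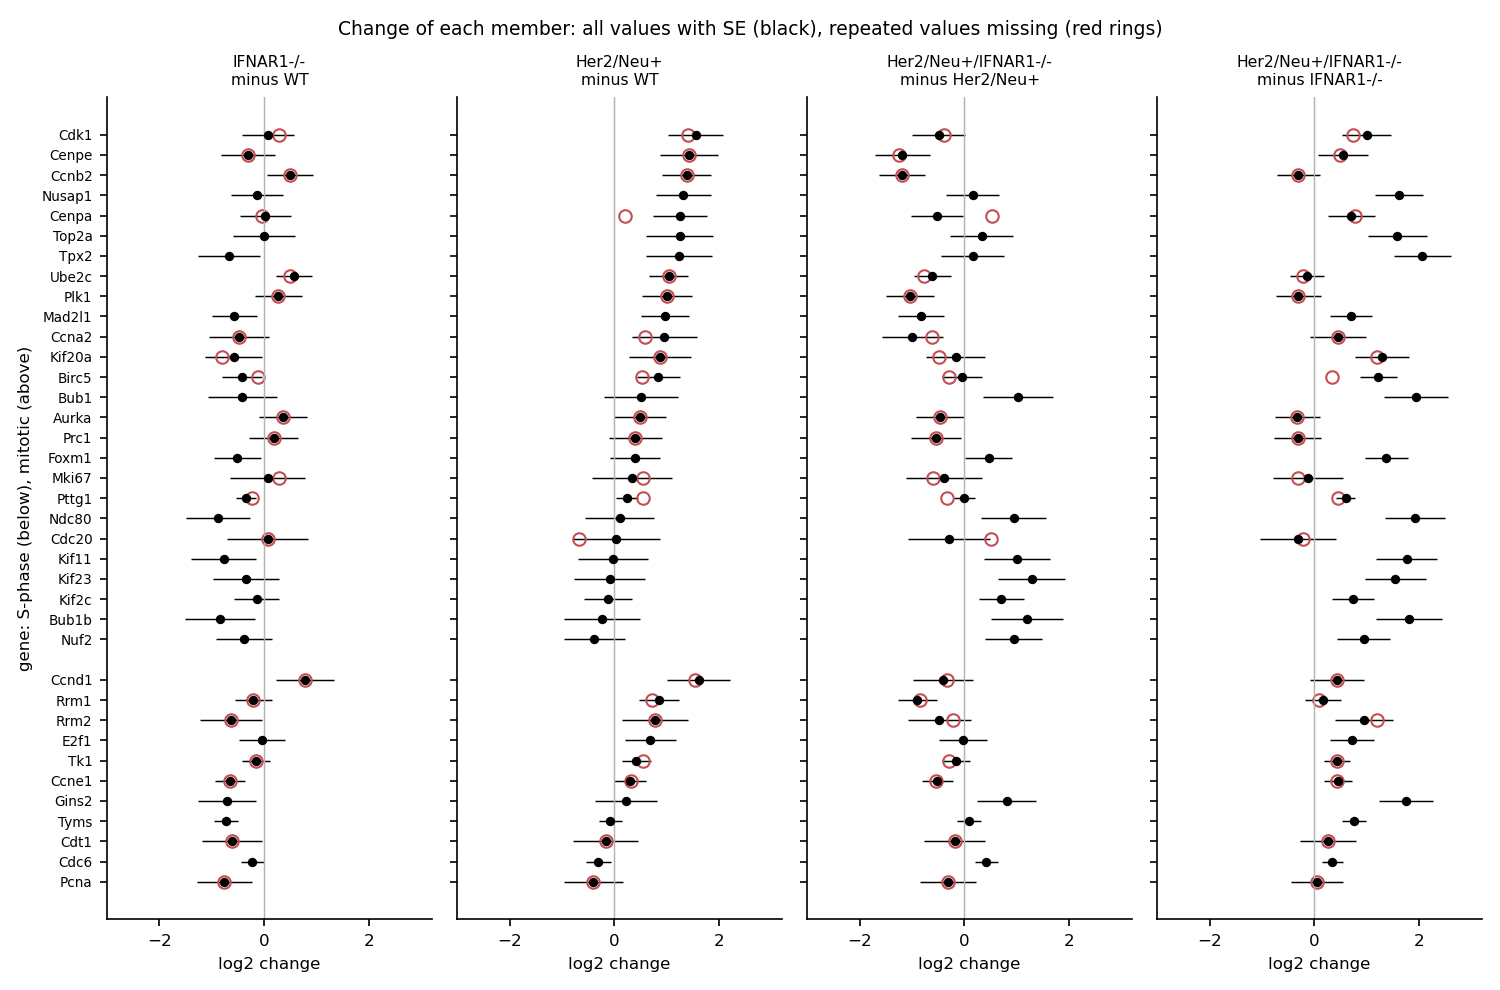
Log2 difference of each member in the 4 pairwise contrasts, with black points and standard errors from all values and red rings from the fit with repeated values missing. Mitotic members are above and S-phase members below. Most black points lie right of 0 in both contrasts that add the oncogene, and the red rings of mitotic members lie mostly left of 0 where receptor loss is added to the oncogene (2 of 14 above 0). Repeated values lie mostly near 0 and were most frequent in Her2/Neu+/IFNAR1-/- glands, so leaving them out can itself lower these rings.

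Among the 6 members free of repeated values, Ccnb2 and Plk1 had the largest differences between Her2/Neu+ and WT glands, and neither passed. Ccnb2 encodes cyclin B2, the partner of CDK1 in mitotic entry. Its lowest, median and highest log2 ratios were -4.46, -2.94 and -2.32 in WT, -3.61, -2.69 and -1.76 in IFNAR1-/-, -3.67, -1.79 and -0.05 in Her2/Neu+, and -4.68, -2.97 and -1.91 in Her2/Neu+/IFNAR1-/- glands. The Her2/Neu+ glands were the high ones, with 5 of 6 above every WT gland and array 115 as the exception, and the other groups overlapped widely. The highest value was that of array 114. The difference from WT was 1.38 ± 0.47 (SE), or 2.61-fold, and did not pass (adjusted p = 0.209). All 9 Her2/Neu+/IFNAR1-/- glands lay below the Her2/Neu+ mean, with a difference of -1.19 ± 0.45 (adjusted p = 0.326). The interaction for Ccnb2 was -1.69 ± 0.63 (adjusted p = 0.483).

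Plk1, a kinase of mitotic entry and spindle assembly, had means of -2.86 ± 0.73 (SD, n = 7), -2.59 ± 0.54 (n = 8), -1.85 ± 1.05 (n = 6) and -2.89 ± 1.12 (n = 9), in the group order used for Ccnb2. All 6 Her2/Neu+ glands lay above the WT mean, 3 of them above every WT gland, and array 114 was highest at 0.09. Its differences were 1.01 ± 0.48 for Her2/Neu+ against WT (adjusted p = 0.404) and -1.04 ± 0.46 between Her2/Neu+/IFNAR1-/- and Her2/Neu+ glands (adjusted p = 0.403). Ccna2, which encodes cyclin A2, also had its highest mean in Her2/Neu+ glands, where 2 of its 6 values were repeated. Its means were -3.17 ± 0.48, -3.66 ± 1.48, -2.21 ± 1.19 and -3.21 ± 1.16. Neither its difference from WT nor that from Her2/Neu+/IFNAR1-/- glands passed (limma, adjusted p = 0.560 and 0.507). Aurka, the kinase of the spindle poles, differed little between group means, at -3.62 ± 1.08, -3.27 ± 0.89, -3.13 ± 0.83 and -3.59 ± 0.83.

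Cdk1 encodes the kinase that drives mitosis. Its lowest, median and highest log2 ratios were -5.29, -3.63 and -2.31 in WT, -5.51, -3.50 and -2.75 in IFNAR1-/-, -3.95, -2.08 and -0.96 in Her2/Neu+, and -4.06, -2.85 and -1.29 in Her2/Neu+/IFNAR1-/- glands. Both groups with the oncogene reached higher than both without it, and all 4 ranges overlapped. The difference was 1.55 ± 0.53 without receptor loss (adjusted p = 0.211) and 1.00 ± 0.46 with it (adjusted p = 0.244). Averaged over both states Cdk1 rose by 1.27 ± 0.35 (adjusted p = 0.0469). With repeated values missing (6 of its 30 values) the average was 1.07 and did not pass (adjusted p = 0.0904). Foxm1, the transcription factor of mitotic genes, had an average of 0.88 ± 0.31 (adjusted p = 0.122), but 19 of its 30 values were repeated.

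Spindle proteins gave 2 of the 4 calls. Nusap1, which bundles spindle microtubules, had lowest, median and highest log2 ratios of -4.63, -3.49 and -2.01 in WT, -4.59, -3.40 and -1.89 in IFNAR1-/-, -3.89, -2.04 and -0.51 in Her2/Neu+, and -3.75, -1.76 and -0.82 in Her2/Neu+/IFNAR1-/- glands. The medians of both groups with the oncogene lay near the highest values of the groups without it, although the lowest glands overlapped. It rose by 1.47 ± 0.35 (adjusted p = 0.0256), with similar differences without and with receptor loss, 1.32 ± 0.53 (adjusted p = 0.292) and 1.62 ± 0.46 (adjusted p = 0.0716). The interaction was 0.30 ± 0.71 (adjusted p = 0.897). Its values were repeated on 2 of 7, 2 of 8, 2 of 6 and 6 of 9 arrays in the order of groups above.

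Tpx2, the activator of Aurora A on the spindle, had lowest, median and highest log2 ratios of -4.74, -3.56 and -2.31 in WT, -5.52, -3.99 and -2.81 in IFNAR1-/-, -4.47, -2.14 and -0.23 in Her2/Neu+, and -4.02, -1.99 and -1.04 in Her2/Neu+/IFNAR1-/- glands. It rose by 1.64 ± 0.42 on average (adjusted p = 0.0331), and its values were repeated on 1 of 7, 0 of 8, 3 of 6 and 6 of 9 arrays. Neither Nusap1 nor Tpx2 could be tested with repeated values missing. Prc1, the bundler of the spindle midzone, had no repeated value and means of -2.80 ± 0.82, -2.62 ± 0.88, -2.39 ± 1.13 and -2.94 ± 0.97, with an average oncogene difference of 0.04 ± 0.34 (adjusted p = 0.963). Kif20a, a kinesin of cytokinesis, had an average difference of 1.08 ± 0.39 (adjusted p = 0.127). The kinesins Kif11 and Kif23 each had 26 of 30 values repeated, and the highest values of Kif11 lay between -0.05 and -0.01 in all 4 groups.

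**Figure D2:**
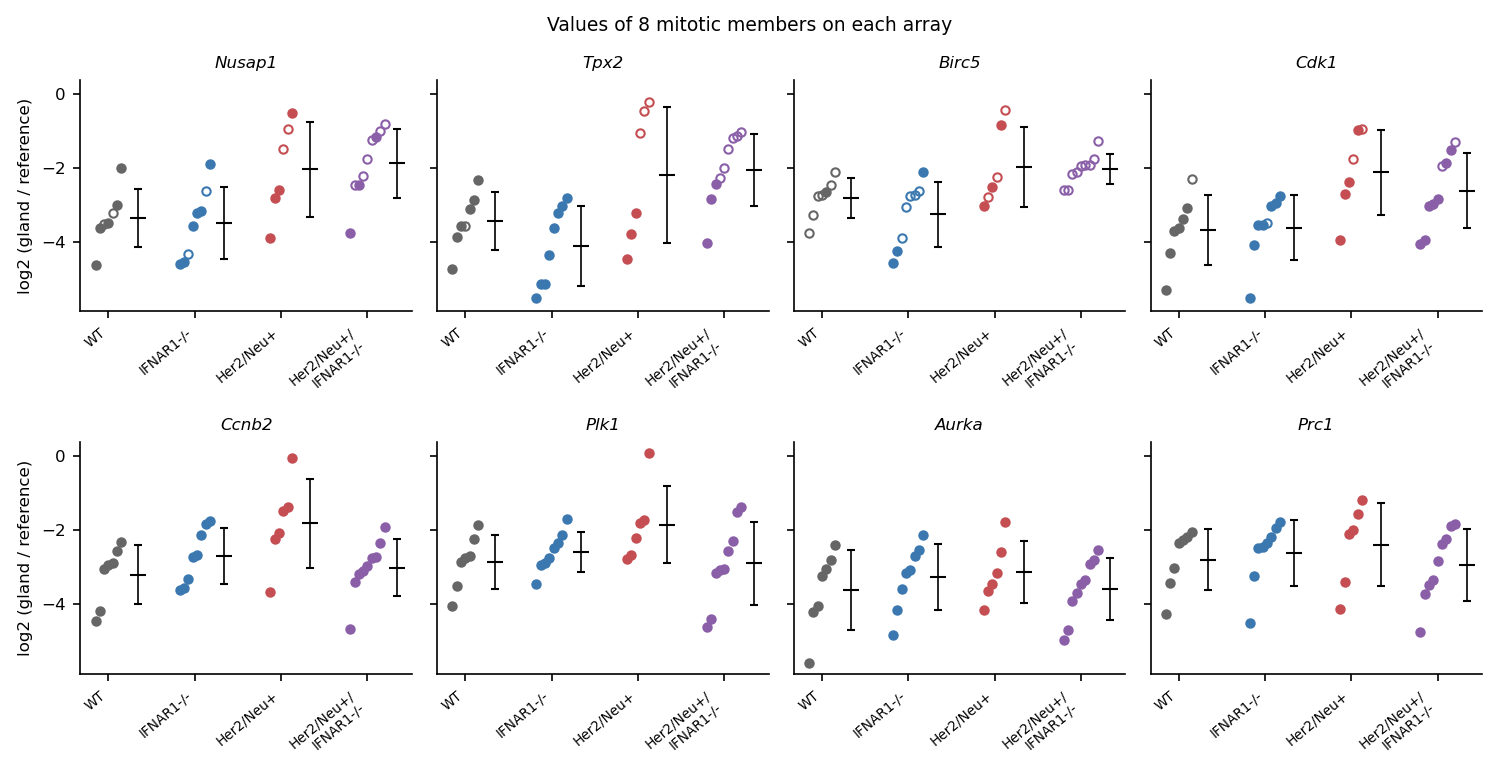
Log2 ratio of gland over reference for 8 mitotic members, 1 point per array and group, with bars at the mean ± SD; filled points hold no repeated value and open points hold at least 1. Nusap1, Tpx2, Birc5 and Cdk1 rose with the oncogene averaged over both receptor states, and Nusap1 and Tpx2 each have 6 of 9 open points in Her2/Neu+/IFNAR1-/- glands. Ccnb2, Plk1, Aurka and Prc1 have no open point, and their Her2/Neu+/IFNAR1-/- means lie below the Her2/Neu+ means.

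At the centromere and kinetochore, Birc5, the survivin subunit of the chromosomal passenger complex, rose by 1.03 ± 0.27 with the oncogene on average (adjusted p = 0.0387). Its lowest, median and highest log2 ratios were -3.75, -2.72 and -2.11 in WT, -4.57, -2.91 and -2.11 in IFNAR1-/-, -3.03, -2.39 and -0.42 in Her2/Neu+, and -2.59, -1.94 and -1.28 in Her2/Neu+/IFNAR1-/- glands. The value averages 3 probes that disagree. The probe with 21 of 29 values repeated gave an average difference of 1.48, that with 11 of 30 repeated gave 1.67, and that with 0 of 30 repeated gave -0.14. Cenpe, a kinetochore motor, had means of -4.63 ± 0.60, -4.94 ± 1.22, -3.20 ± 1.38 and -4.39 ± 0.81 in the same order of groups. Its differences were 1.42 ± 0.55 for Her2/Neu+ against WT (adjusted p = 0.273) and -1.18 ± 0.52 between Her2/Neu+/IFNAR1-/- and Her2/Neu+ glands (adjusted p = 0.404), where 9 of 9 glands lay below the Her2/Neu+ mean. Cenpa, the centromeric histone, differed by 1.25 ± 0.52 between Her2/Neu+ and WT glands (adjusted p = 0.310) and by 0.21 with repeated values missing. Ndc80 and Nuf2, which bind kinetochore microtubules, had 22 and 24 of 30 values repeated.

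The genes of anaphase gave mixed values. Ube2c, the ubiquitin-conjugating enzyme of the anaphase-promoting complex, had means of -3.85 ± 0.40, -3.28 ± 0.66, -2.81 ± 0.93 and -3.43 ± 0.67. In Her2/Neu+ glands 5 of 6 lay above every WT gland, and the difference was 1.03 ± 0.37 (adjusted p = 0.240). Its 2 probes disagreed: the oncogene average was 0.88 for that with 4 of 30 values repeated and 0.014 for that with 0 of 30. Cdc20, the activator of the complex, had an average oncogene difference of -0.14 ± 0.55 (adjusted p = 0.917), the only one of 26 mitotic members below 0 in that average. Pttg1, or securin, an inhibitor of sister chromatid separation, had an average difference of 0.42 ± 0.14 (limma, adjusted p = 0.0983). It averages 2 probes with means of -1.16 and -0.24. The first had 0 of 30 values repeated and gave 0.50. The second had values on 25 arrays, 25 of 25 repeated, and gave 0.12.

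The spindle checkpoint genes rested on repeated values. Bub1, a checkpoint kinase with 10 probes, had 184 of 300 values repeated, and Bub1b, a partner in the checkpoint complex, 22 of 30. Their differences in Her2/Neu+/IFNAR1-/- against IFNAR1-/- glands were 1.94 ± 0.62 and 1.81 ± 0.63 (adjusted p = 0.0952 and 0.123). In Her2/Neu+/IFNAR1-/- glands 76 of 90 values of Bub1 and 9 of 9 of Bub1b were repeated. Mad2l1, which holds back the anaphase-promoting complex, averages 3 probes with values on 30, 21 and 23 arrays and means of -3.17, 0.57 and 0.12. Its value on an array thus depends on which of these probes were measured there. The average oncogene difference of Mad2l1 was 0.84 ± 0.31 (limma, adjusted p = 0.131).

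Mki67 and Top2a, proteins of mitotic chromosomes, differed from each other. Mki67, the proliferation marker Ki-67, had means of -3.81 ± 1.52, -3.75 ± 1.41, -3.47 ± 1.61 and -3.87 ± 1.30, with an average oncogene difference of 0.11 ± 0.51 (adjusted p = 0.932). Single glands ran from -6, the bound of the scale, to -1.66. Top2a, which untangles sister chromatids, had means of -3.51 ± 0.84, -3.52 ± 0.94, -2.27 ± 1.98 and -1.94 ± 0.99 and an average difference of 1.41 ± 0.43 (adjusted p = 0.0701), with 10 of 30 values repeated.

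Among S-phase members, those of nucleotide supply include Rrm1, the large subunit of ribonucleotide reductase, which had the smallest p of the 4 in Her2/Neu+ against WT glands. Its lowest, median and highest log2 ratios were -3.58, -3.22 and -2.46 in WT, -4.79, -3.27 and -2.30 in IFNAR1-/-, -4.11, -2.0 and -1.35 in Her2/Neu+, and -3.94, -3.01 and -2.51 in Her2/Neu+/IFNAR1-/- glands. The Her2/Neu+ glands were highest, 4 of 6 above every WT gland, and 9 of 9 Her2/Neu+/IFNAR1-/- glands lay below the Her2/Neu+ mean. Neither the difference from WT, 0.85 ± 0.39 (adjusted p = 0.368), nor that from Her2/Neu+/IFNAR1-/- glands, -0.90 ± 0.37 (adjusted p = 0.365), passed. In the oncogene average Rrm1 had 0.51 ± 0.26 (adjusted p = 0.280), Rrm2, the small subunit, 0.86 ± 0.42 (adjusted p = 0.264), and Tk1, thymidine kinase, 0.42 ± 0.19 (adjusted p = 0.222). Tyms, thymidylate synthase, had the smallest p of the S-phase members in IFNAR1-/- against WT glands, -0.73 ± 0.23 (adjusted p = 0.595), from repeated values alone.

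The 4 measured genes of origin licensing and the fork had a median oncogene average of 0.03. Pcna, the sliding clamp of DNA polymerase, had no repeated value and lowest, median and highest log2 ratios of -2.90, -1.91 and -1.69 in WT, -5.04, -2.60 and -1.75 in IFNAR1-/-, -4.72, -2.03 and -1.17 in Her2/Neu+, and -4.67, -2.13 and -1.68 in Her2/Neu+/IFNAR1-/- glands. The groups overlapped throughout, and the average oncogene difference was -0.18 ± 0.37 (adjusted p = 0.832). Cdt1, which loads the replicative helicase, likewise had no repeated value and a difference of 0.05 ± 0.41 (adjusted p = 0.963). Gins2, a part of the replicative helicase, had an average difference of 0.99 ± 0.39 (adjusted p = 0.169), with 19 of 30 values repeated.

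Of the genes at the G1/S boundary, Ccnd1, which encodes cyclin D1, had lowest, median and highest log2 ratios of -4.49, -1.42 and -0.74 in WT, -3.54, -0.84 and 0.01 in IFNAR1-/-, -1.67, -0.20 and 0.53 in Her2/Neu+, and -2.77, -0.72 and 1.06 in Her2/Neu+/IFNAR1-/- glands. In Her2/Neu+ glands 5 of 6 lay above every WT gland, a difference of 1.61 ± 0.60 or 3.06-fold that did not pass (adjusted p = 0.255). Ccne1, which encodes cyclin E1, had the smallest p of the members for receptor loss averaged over both oncogene states, -0.59 ± 0.20 (adjusted p = 0.419). Its means were -0.66 ± 0.50 and -1.32 ± 0.61 without the oncogene and -0.36 ± 0.56 and -0.87 ± 0.49 with it, each pair with the receptor intact first. E2f1, a driver of S-phase genes, had an average oncogene difference of 0.70 ± 0.32 (adjusted p = 0.232).

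The mitotic and the S-phase class were compared on each array as the mean over members after each gene was centred on the mean of its 4 group means. The mitotic mean was -0.26 ± 0.40 (SD) over 7 WT glands and -0.48 ± 0.64 over 8 IFNAR1-/- glands. It was 0.38 ± 0.94 over 6 Her2/Neu+ glands and 0.36 ± 0.50 over 9 Her2/Neu+/IFNAR1-/- glands. The S-phase mean was -0.05 ± 0.31, -0.41 ± 0.46, 0.32 ± 0.43 and 0.16 ± 0.27 in the same order. Within Her2/Neu+ glands the mitotic mean ran from -0.71 on array 120 to 1.72 on array 114, wider than any gap between group means. The mitotic minus the S-phase mean was -0.21 ± 0.38, -0.08 ± 0.52, 0.06 ± 0.63 and 0.20 ± 0.45, with SDs as large as most gaps between the group means. Once repeated values were left out these differences were -0.17 ± 0.37, 0.18 ± 0.41, 0.02 ± 0.42 and -0.06 ± 0.54, in another order. Because the members were chosen with results of these data known, no p is given for the class means.

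**Figure D3:**
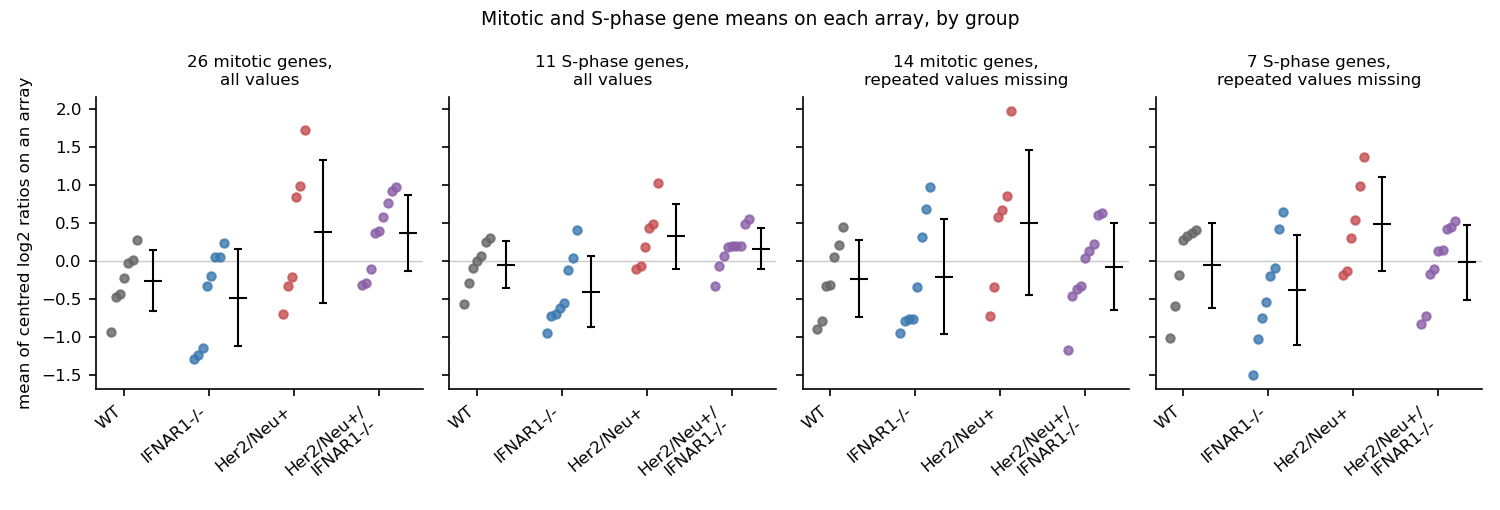
Mean of centred log2 ratios over mitotic and S-phase members on each array, by group, with all values in the first 2 panels and repeated values missing in the last 2; points are arrays and bars the mean ± SD of the group. With all values the mitotic mean of Her2/Neu+/IFNAR1-/- glands, 0.36, is near that of Her2/Neu+ glands, 0.38. With repeated values missing it is -0.08 against 0.50, and array 114 is the highest Her2/Neu+ gland in all panels. Repeated values lie mostly near 0 and were most frequent in Her2/Neu+/IFNAR1-/- glands, so leaving them out can itself lower that group.

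The standing of the Her2/Neu+/IFNAR1-/- glands turned on the repeated values. These made up 56.3% of the mitotic members' values in that group and lie mostly near 0, above the usual level of these genes. Leaving them out can thus lower that group by itself, and the part of this in the values below was not tested. With repeated values missing, the mitotic mean was -0.23 ± 0.50 in WT, -0.21 ± 0.75 in IFNAR1-/-, 0.50 ± 0.95 in Her2/Neu+ and -0.08 ± 0.57 in Her2/Neu+/IFNAR1-/- glands. The median difference of Her2/Neu+/IFNAR1-/- from Her2/Neu+ glands became -0.51 over 14 mitotic members, with 2 above 0, and -0.31 over 7 S-phase members, with 0 above 0, beside 0.10 over all genes. That of Her2/Neu+/IFNAR1-/- from IFNAR1-/- glands was 0.06 for mitotic members, with 7 of 14 above 0, and 0.42 for S-phase members. That of Her2/Neu+ from WT glands was 0.57, with 13 of 14 above 0. Over the 237 genes with a mean under -2 the medians in these contrasts were -0.28, -0.10 and 0.29, in the same order. The members' medians are to be read beside these too. No member passed in any of the contrasts.

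The values also differed when the 26 mitotic members were ordered by their share of repeated values, a grouping made after seeing the data. For the 9 with at most 10% repeated, the median difference was 0.96 in Her2/Neu+ against WT glands (9 of 9 above 0), -0.61 in Her2/Neu+/IFNAR1-/- against Her2/Neu+ glands (0 of 9) and -0.30 in Her2/Neu+/IFNAR1-/- against IFNAR1-/- glands (2 of 9). For the 9 with over 50% repeated, the medians were -0.02 (4 of 9), 0.94 (8 of 9) and 1.55 (9 of 9). Over all genes the medians in the same contrasts were -0.15, 0.12 and 0.00 for 4030 genes with at most 10% repeated and 0.03, 0.18 and 0.31 for 3604 genes with over 50%. The 7 S-phase members with at most 10% repeated had medians of 0.42, -0.40 and 0.42. This ordering is not independent of the levels, since repeated values lie mostly near 0, above the usual level of these genes, and were most frequent in Her2/Neu+/IFNAR1-/- glands.

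Over the 30 arrays the mitotic mean correlated with the number of repeated values per array, at r = 0.815 (rho = 0.734) and 0.769 within groups, given as a description because both come from the same arrays. For the S-phase mean r was 0.337 and 0.075 within groups. Without repeated values the correlations were 0.092 for the mitotic and -0.156 for the S-phase mean, and 0.021 and -0.406 within groups. The number of repeated values was 6403 ± 1353 in WT, 5022 ± 1807 in IFNAR1-/-, 7123 ± 3273 in Her2/Neu+ and 8054 ± 1500 in Her2/Neu+/IFNAR1-/- glands, and its part in the differences between groups was not tested beyond the alternatives given.

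**Figure D4:**
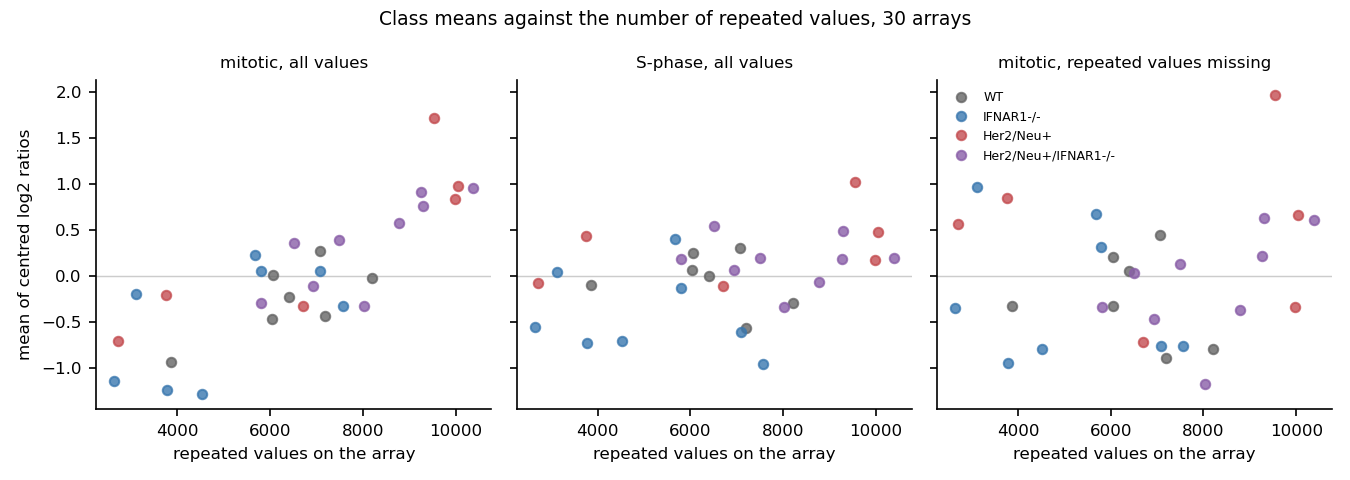
Class mean on each of the 30 arrays (y axis, log2, centred) against the number of repeated values on that array (x axis), coloured by group, for the mitotic members, the S-phase members and the mitotic members with repeated values missing. The mitotic points rise to the right (r = 0.815), the S-phase points less (r = 0.337), and the mitotic points without repeated values do not (r = 0.092).

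The slides and a split into 2 array sets were inferred from block numbers and sample order. No inferred slide holds both groups of a pairwise contrast, so groups and slides cannot be told apart there. Within array set 1 and set 2 the mitotic medians were 0.50 and 1.04 for Her2/Neu+ against WT, 0.44 and -1.02 for Her2/Neu+/IFNAR1-/- against Her2/Neu+, and 1.06 and 0.98 for Her2/Neu+/IFNAR1-/- against IFNAR1-/- glands. For IFNAR1-/- against WT glands they were 0.24 and -0.54. The S-phase medians were 0.27 and 0.55, -0.25 and -0.59, 0.54 and 0.49, and -0.11 and -0.68 in the same contrasts. The sign thus held in both sets for the oncogene and differed between sets for receptor loss among mitotic members. Set 2 holds only 2 Her2/Neu+ arrays, 114 and 119, and array 114 stood apart in its markers as described next. In set 2 alone Top2a rose in Her2/Neu+ against WT glands by 3.36 ± 0.72 (adjusted p = 0.0122) and Tpx2 by 3.17 ± 0.84 (adjusted p = 0.0395), while Mad2l1 fell by 2.73 ± 0.72 in Her2/Neu+/IFNAR1-/- against Her2/Neu+ glands (adjusted p = 0.0318).

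Array 114 of the Her2/Neu+ group stood apart. It had the highest mitotic mean of its group, 1.72, and the highest S-phase mean, 1.03. It also had the lowest luminal (-1.83), basal (-1.88) and adipocyte (-0.65) marker means and the highest B cell (2.88) and T and NK cell (1.12) marker means of the group. Without this array the mitotic median for Her2/Neu+ against WT glands was 0.42, that for Her2/Neu+/IFNAR1-/- against Her2/Neu+ glands turned to 0.12 and the S-phase median to 0.09. When repeated values were missing as well, the mitotic medians were 0.36 and -0.23. Without array 119 the S-phase median for Her2/Neu+ against WT glands was 0.10.

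Some lymphocyte markers varied with the class means. The B cell list (5 of 12 genes measured) had array means from -1.77 to 1.26 in WT, -2.59 to 0.84 in IFNAR1-/-, -0.83 to 2.88 in Her2/Neu+ and -1.14 to 1.70 in Her2/Neu+/IFNAR1-/- glands. The T and NK cell list (8 of 17 measured) ran from -0.96 to 1.07, -1.55 to 0.64, -1.43 to 1.12 and -1.01 to 1.44. For the correlations, repeated values were set to missing in the class means but kept in the marker means. The correlation over the 30 arrays was 0.462 between the mitotic and the B cell mean and 0.600 between the S-phase and the B cell mean. It was 0.376 and 0.490 for T and NK cells, -0.550 and -0.673 for adipocytes, and 0.089 and 0.226 for luminal epithelium. For germinal centre B cell genes (4 measured) it was 0.116 and -0.082, and for housekeeping genes (9 measured) -0.237 and -0.336. These arrays share RNA, dyes and depth across both measures, so the values are a description, and the part of cell composition in the members' differences was not tested. No B cell or T and NK cell marker passed in any contrast (limma), but some did at an unadjusted p under 0.05. Cd22 was higher in Her2/Neu+ against WT glands and in the oncogene average, and Cr2 lower in IFNAR1-/- against WT glands. The T cell gene Cd3g was lower in IFNAR1-/- against WT glands, higher in Her2/Neu+/IFNAR1-/- against IFNAR1-/- glands and above 0 in the interaction.

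In the oncogene average epithelial markers passed the test in both directions, beside 2.57% of all genes. At an unadjusted p under 0.05, 11.3% of all genes were higher there and 7.55% lower. Of 14 measured luminal genes 1 rose, the adhesion molecule Epcam, by 2.10 ± 0.55 (adjusted p = 0.0388), while 3 were higher and 2 lower at an unadjusted p under 0.05. Of 8 measured basal and myoepithelial genes 3 fell, among them Tagln, an actin-binding protein, at -0.99 ± 0.25 (adjusted p = 0.0319). Of 3 measured milk genes Lalba rose, by 5.25 ± 0.38, and at an unadjusted p under 0.05 2 were higher and 1 lower. The scale is bounded at 6, and the milk mean was the same, 1.18, on Her2/Neu+/IFNAR1-/- arrays 102, 105, 106, 108 and 110. The size and SE for Lalba may thus be limited by the bound, which was not tested. Of 6 measured macrophage genes Csf1r fell, by 0.75 ± 0.20 (adjusted p = 0.0377), and no other was higher or lower at an unadjusted p under 0.05. Of 11 adipocyte genes none passed, with 0 at an unadjusted p under 0.05.

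Members varied together more within the mitotic class than within the S-phase class. After removing group means, the median correlation over 30 arrays was 0.36 for the 325 mitotic pairs, of which 256 lay above 0, 0.07 for the 55 S-phase pairs and 0.15 for the 286 mixed pairs. Without repeated values the medians were 0.44 for 91 pairs, 0.32 for 21 and 0.30 for 98. Tpx2 and Nusap1 had the highest median correlation with other mitotic members, 0.67 and 0.65, and Mki67, Prc1 and Cdc20 had values of -0.11, -0.05 and -0.05. Without repeated values, Mki67, Cdc20 and Prc1 stood at 0.49, 0.49 and 0.51. The class means correlated at r = 0.724, or 0.791 with repeated values missing.

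The genes most like the mitotic mean over the 30 arrays, among 10036 with values on at least 28, were Pask (r = 0.889), Trip13 (0.883), Lmnb1 (0.879), Sgo1 (0.879), Cenpw (0.876), Cdca5 (0.869), Rhox5 (0.856), Cdca8 (0.854), Fignl1 (0.853) and Tuba3a (0.847). Those most like the S-phase mean were led by the histone genes H2ac4 (0.834) and H1f4 (0.746) and by Setd4 (0.764) and Zfp146 (0.735). Without repeated values, 4383 genes could be ranked and H2ac4 was first for the mitotic mean (0.865) and among the first 3 for the S-phase mean (0.796). Many histone genes are transcribed in S phase. Tacc3, a spindle protein, stood at 0.775 with the mitotic mean. The first 10 for that mean also held Gm11223 (0.738), Rnu3b1 (0.728), Rpl17-ps1 (0.727) and Gm4986 (0.711). Of the genes named above for the mitotic mean with all values, only Cdca8 (0.748) was among them.

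Other cell cycle genes were taken from lists outside the 43, to be read beside the 2.57% of all genes that passed in the oncogene average and the 11.3% that were higher at an unadjusted p under 0.05. Among genes with a mean under -2 these shares were 11.8% and 42.6%. Of 66 other mitotic genes measured of 76 listed, 6 rose and 0 fell with the oncogene on average, and 29 were higher at an unadjusted p under 0.05. Their median was 0.49, beside 0.07 over all genes and 0.46 over genes with a mean under -2. It was 0.16 for the 22 that could be tested with repeated values missing. Spag5, a spindle and kinetochore protein, rose by 2.05 ± 0.36 (adjusted p = 0.00192), with 15 of 30 values repeated. Fbxo5, or Emi1, an inhibitor of the anaphase-promoting complex, rose by 1.33 ± 0.26 (adjusted p = 0.00679) and by 1.36 with repeated values missing (adjusted p = 0.0114). Cdca5, or sororin, which protects sister chromatid cohesion, rose by 1.27 ± 0.33 (adjusted p = 0.0357) and by 1.17 with repeated values missing (adjusted p = 0.0248). Cdca8, a subunit of the chromosomal passenger complex, rose by 0.83 ± 0.22 (adjusted p = 0.0388) but had 0.47 without repeated values (adjusted p = 0.292).

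Fbxo5 and Cdca5 were the 2 genes of that list that passed both with and without repeated values. Fbxo5 had group means of -3.10, -3.07, -1.53 and -1.98 in the same group order, and Cdca5 of -3.18, -3.53, -1.80 and -2.36. Spc25, a kinetochore protein with no repeated value, had the smallest p of its list for receptor loss with the oncogene, -1.61 ± 0.46 (adjusted p = 0.207). Its group means were -3.50, -4.04, -2.74 and -4.35.

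Of 53 other S-phase genes measured of 63 listed, 2 rose with the oncogene on average and 0 fell. Their median was 0.33, and -0.06 with repeated values missing (11 of 24 above 0), against 0.41 for the S-phase members. Those that rose were Cdc25a, a phosphatase that activates cyclin-dependent kinases (0.96 ± 0.23, adjusted p = 0.0256), and Exo1, a nuclease of DNA repair (1.80 ± 0.43, adjusted p = 0.0265), with 15 of 30 and 15 of 28 values repeated. Of the 6 MCM genes, which form the replicative helicase, Mcm2 alone passed, by 1.40 ± 0.34 (adjusted p = 0.0268), with 9 of 30 values repeated. The MCM median was -0.12, and -0.27 with repeated values missing. In Her2/Neu+/IFNAR1-/- against Her2/Neu+ glands 0 of 6 MCM genes lay above 0, with Mcm3 at -0.86 ± 0.39 (adjusted p = 0.419). Of 26 cell cycle brakes, 1 rose in Her2/Neu+/IFNAR1-/- against IFNAR1-/- glands, the repressor gene E2f8, by 2.39 ± 0.61 (adjusted p = 0.0436), with 18 of 30 values repeated. None passed on average (limma), where 6 of 26 were higher at an unadjusted p under 0.05 beside 11.3% of all genes. Over probes with few repeated values 0 of 8 were higher, with a median of -0.05.

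The 4 calls among members were sensitive to single arrays. When each of the 30 arrays was left out in turn, Nusap1 passed in 29 fits, Birc5 in 18, Tpx2 in 15 and Cdk1 in 8. The number of members past the threshold ran from 0 without Her2/Neu+ 113 to 7 without Her2/Neu+ 120. It was 1 without IFNAR1-/- 44, 47 or 50, WT 53 or 60, Her2/Neu+ 114, or Her2/Neu+/IFNAR1-/- 105, 108, 109 or 110, and 2 without WT 56 or 57, Her2/Neu+ 119 or Her2/Neu+/IFNAR1-/- 103. The sizes moved less, from 1.32 to 1.65 for Nusap1, 1.33 to 1.87 for Tpx2, 0.88 to 1.14 for Birc5 and 1.14 to 1.46 for Cdk1. With the inferred slide as a random block all 4 lost the call (adjusted p = 0.0813 to 0.120), at nearly the same sizes.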

How the data were processed

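Each of the 30 mammary gland samples was hybridised in Cy5 with a universal mouse reference in Cy3 on a 2-colour array, per the labels. The deposited values are log2 ratios of gland over reference, bounded at 6 in either direction (base 2 is inferred from that bound), and the background correction and normalization are not given in the sources used here. The deposited log2 values were used without further scaling. Of 20896 probes, 17376 had 1 gene name in the platform annotation (17202 matched by gene ID to RefSeq, 0 symbols changed) and 3520 were unnamed. Probes needed values on 50% or more of each group's arrays. Probes of a gene were averaged, also where they disagreed (Birc5, Ube2c), stood at unlike levels (Mad2l1, Pttg1) or were blank on some arrays. Arrays held 17485 to 20801 values, with medians of -0.12 to -0.00.

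All 11463 genes were fitted in limma 3.58.1 (R 4.3.3, statmod 1.5.0), with 1 mean per group over 30 arrays and 7 contrasts, two-sided, with p-values adjusted after Benjamini-Hochberg across all genes and a threshold of 0.05. The procedure was tested on simulated data. Members and gene lists were chosen with earlier results of these data known. In the context lists, up to 4 genes past the threshold with the smallest p were named per contrast, or the 1 with the smallest p; the 10 genes most like each class mean were ranked by Pearson correlation. Alternatives covered normalization, probe filters and summaries, array weights, inferred slides and array sets, values at the bound, repeated values and each array left out. Promoters came from RefSeq.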

Additional observations from a re-analysis of the deposited data

Results flagged for a closer look

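In 160 tests, which cover each member, the class means and their difference in each group, 11 found a single array far from the others of its group by Dixon's gap test, which chance gives in about 1 in 20. In WT glands these were Ndc80 at -3.28 on array 60 (nearest value -1.13), Tyms at -0.34 on array 60 (nearest -0.10), Cdc6 at -0.66 on array 60 (nearest -0.18), Tk1 at -0.80 on array 59 (nearest -1.33) and Cdt1 at -6, the bound of the scale, on array 56 (nearest -3.75). In IFNAR1-/- glands Pcna stood at -5.04 on array 41 (nearest -3.29). In Her2/Neu+ glands Plk1 stood at 0.091 on array 114 (nearest -1.72) and Tyms at -0.61 on array 120 (nearest -0.05). In Her2/Neu+/IFNAR1-/- glands Kif11 stood at -0.89 on array 102 (nearest -0.36), Kif2c at 3.00 on array 108 (nearest -0.00) and Ndc80 at 2.80 on array 104 (nearest -0.01). Tyms, Cdc6, Kif2c, Kif11 and Ndc80 are genes with most values repeated.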

How the results depend on the processing

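The median differences of Her2/Neu+ against WT glands and of the oncogene average kept their sign in all settings for both classes, while calls and the contrasts of receptor loss did not all hold. With 1 array left out, the members past the threshold numbered 0 to 7 for the oncogene average and 0 to 6 for Her2/Neu+/IFNAR1-/- against IFNAR1-/- glands (6 without IFNAR1-/- 42). The mitotic and S-phase medians ran from -0.41 to -0.11 and -0.73 to -0.38 for IFNAR1-/- against WT, 0.42 to 0.97 and 0.10 to 0.43 for Her2/Neu+ against WT, -0.27 to 0.12 and -0.39 to 0.09 for Her2/Neu+/IFNAR1-/- against Her2/Neu+, 0.74 to 1.00 and 0.34 to 0.57 for Her2/Neu+/IFNAR1-/- against IFNAR1-/-, -0.11 to 0.50 and 0.03 to 0.40 for the interaction, and 0.61 to 0.99 and 0.36 to 0.49 for the oncogene average.

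For the oncogene average the count was 0 with slides as random blocks, in array set 1, without the last slide, with repeated values missing (also without array 114), with few-repeated probes and with the number of repeated values as a covariate, 1 with the block position and 2 with array weights or arrays scaled to 1 spread. Few-repeated probes gave a mitotic median of 0.11, equal spread an S-phase median of 0.024. For Her2/Neu+/IFNAR1-/- against IFNAR1-/- glands the count was 1 with probes valued on all arrays, with the probe of most values per gene and with values at the bound missing, 7 without the last slide and 11 with array weights. Its mitotic median was 0.061 with repeated values missing (0.061 also without array 114), -0.31 with few-repeated probes, 0.10 with equal spread and 0.066 with the covariate. The interaction medians were -0.33 and -0.26 (S-phase) after quantile normalization, -0.69 with repeated values missing, -0.32 also without array 114, -0.72 with few-repeated probes, -0.72 and -0.40 (S-phase) with equal spread, -0.35 with the covariate and -0.50 in array set 2. Array set 2 alone gave 2 calls for Her2/Neu+ against WT, 1 for Her2/Neu+/IFNAR1-/- against Her2/Neu+ with medians of -1.02 and -0.59, and 1 for receptor loss on average with a mitotic median of -0.91. For IFNAR1-/- against WT the S-phase median was -0.14 after quantile normalization, -0.11 in array set 1, -0.13 with equal spread and -0.20 with the covariate, and array weights gave 1 call. Birc5 turned to -0.14 in the oncogene average with few-repeated probes, which leave 1 of its 3 probes. The cause was not tested otherwise. The settings on repeated values, equal spread and the covariate were chosen after seeing the data. No paired analysis was possible because the groups share no replicate numbers. Array number limits precision.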
